A study of Mus musculus with 4 samples.

Results

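*Nr4a1*, *Nr4a2*, *Nr4a3*, *Cd69*, *Rgs1*, *Rgs2* and *Egr2*, 7 of the 31053 genes listed in each matrix, were followed by symbol in the T, NK and B cells of mouse liver. They were picked by name, as genes that lymphocytes switch on when stimulated, with earlier results of these data known. Their counts and medians set against all genes below are therefore descriptions. Liver mononuclear cells of C57BL/6 mice aged 8 to 10 weeks were profiled by droplet-based single-cell RNA-seq in 4 libraries. Naïve mice were unexposed, and the series description places the other three libraries 24 hours after Concanavalin A (ConA), a plant lectin that activates T cells and causes an acute hepatitis. Mice given ConA also received vehicle (ConA+Veh), TCDD (ConA+TCDD), a chlorinated dioxin, or FICZ (ConA+FICZ), an indole compound derived from tryptophan. In the paper, vehicle or TCDD followed ConA by 1 hour. Both compounds are ligands of the aryl hydrocarbon receptor (AhR), a transcription factor, and the study asked how AhR activation acts in this model of autoimmune hepatitis. Each group was 1 library, and neither the number of mice behind it nor the dose of FICZ or the time at which it was given is stated in the sources used here. No difference below therefore has a replicate check or a p-value. Each interval in parentheses is an exact 95% interval for counting error only, and "higher" and "lower" compare these libraries, not the conditions.

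The 3 NR4A genes encode orphan nuclear receptors that are made soon after antigen receptor or stress signals, and they restrain T cells under prolonged stimulation. CD69 is an early activation antigen that binds the sphingosine-1-phosphate receptor S1PR1 and holds lymphocytes in tissue. RGS1 and RGS2 shorten signalling by chemokine and other G protein-coupled receptors by speeding GTP hydrolysis on G alpha subunits. EGR2 is a zinc finger transcription factor induced through the antigen receptor. In the liver, *Cd69* and *Rgs1* are known from resident lymphocytes, and early response genes are also known to be induced when tissue is dissociated.

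All 7 genes are protein coding, and none overlaps another gene in the GENCODE M21 annotation of GRCm38, the build also called mm10. *Nr4a1* lies at chr15:101254269-101274795 on the plus strand, *Nr4a2* at chr2:57106830-57124003 on the minus strand and *Nr4a3* at chr4:48045153-48086447 on the plus strand. *Cd69* lies at chr6:129267325-129275436 on the minus strand and *Egr2* at chr10:67535475-67542188 on the plus strand. *Rgs1* (chr1:144242296-144249242) and *Rgs2* (chr1:143999338-144004161), both on the minus strand, are 238 kb apart, with 1 other coding gene, *Rgs13*, between them.

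The bases before a RefSeq start site of each NR4A gene are shown because one short motif recurs in all 3 windows. RefSeq promoter entries on GRCm38.p6 were found for 5 of the 7 genes, *Cd69* and *Rgs1* having none, and each was read over the 250 bases before the entry's start site. The letters TGACG, one side of the cAMP response element, were searched on both strands (CGTCA on the other) and are in capitals. They occurred 4 times in each of the windows of *Nr4a1*, *Nr4a2* and *Nr4a3*, 2 times in that of *Rgs2*, and 0 or 2 times in the 5 entries of *Egr2*. Of 32851 promoter windows of the same length, 17.8% held the letters at least once and 0.137% held them 4 or more times. The full palindrome TGACGTCA, which holds the shorter letters on both strands, was in none of the members' windows and in 1.55% of all windows. Motifs known as AP-1, EGR, NBRE and NFAT core were searched in the same windows. Of these, only EGR occurred in an NR4A window, 1 time each in those of *Nr4a1* and *Nr4a2*. TGACG was picked from this search because it recurred, so its share of all windows is a description. The windows of *Nr4a1* (chr15:101266596-101266845, plus strand) and *Nr4a2* (chr2:57124004-57124253, minus strand) are printed whole, the first of them lying inside the annotated span of its gene, before an internal start site, and that of *Nr4a3* (chr4:48045055-48045152, plus strand) up to the first annotated exon, with the 3 of its 4 matches that precede it. A match is a string of letters, and no binding was measured.
Nr4a1: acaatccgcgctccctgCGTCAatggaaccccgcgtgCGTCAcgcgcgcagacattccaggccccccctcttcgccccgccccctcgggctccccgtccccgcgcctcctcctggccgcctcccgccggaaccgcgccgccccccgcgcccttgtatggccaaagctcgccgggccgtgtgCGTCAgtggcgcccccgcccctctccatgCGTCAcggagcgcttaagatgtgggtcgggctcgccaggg
Nr4a2: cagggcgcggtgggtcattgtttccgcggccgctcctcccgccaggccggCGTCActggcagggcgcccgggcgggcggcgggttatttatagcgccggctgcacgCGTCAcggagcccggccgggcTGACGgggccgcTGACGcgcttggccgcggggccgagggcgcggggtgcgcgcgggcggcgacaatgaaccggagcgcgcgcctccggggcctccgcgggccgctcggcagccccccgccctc
Nr4a3: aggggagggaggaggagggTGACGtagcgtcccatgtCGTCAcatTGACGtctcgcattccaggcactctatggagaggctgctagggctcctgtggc

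Cells were gated on marker genes. A cell was T-gated, NK-gated or B-gated when it held at least 2 UMIs (unique molecular identifiers, each standing for 1 captured RNA molecule) of that lineage's markers and at most 1 UMI of the markers of each excluded lineage. T-gated cells could hold NK markers, and NK-gated cells held none of *Cd3e*, *Cd3d* and *Trac*. This gave 2539 T-gated, 628 NK-gated and 3067 B-gated cells, 58.2 to 81.7% of the cells of a library. Of the genes checked that the gates did not use, most followed them. *Cd5* and *Cd6*, carried by T cells, were at 0 in NK-gated cells of every library. *Prf1* (perforin) was at 719 to 1512 UMIs per 1000000 UMIs (CPM) in NK-gated and 17.4 to 34.7 CPM in T-gated cells. *Ebf1*, a B cell factor, was at 461 to 1663 CPM in B-gated and 0.358 to 2.73 CPM in T-gated cells. *Lck*, checked with *Cd5* and *Cd6*, did not separate T from NK. It was at 262 to 537 CPM in T-gated and 317 to 596 CPM in NK-gated cells. The NK marker genes summed to 125 CPM in the T-gated cells of Naïve and to 30.5 to 43.1 CPM in those of the other libraries. The median T-gated cell held 2683 UMIs in Naïve and 6029 to 8129 in the ConA libraries, and any pair of libraries shared 4 to 15 cell barcodes. A level below is the UMIs of a gene in a gate in CPM. A share is the share of cells with at least 1 UMI after each cell was thinned at random to 1000 UMIs, which sets the libraries at equal depth.

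**Figure D1:**
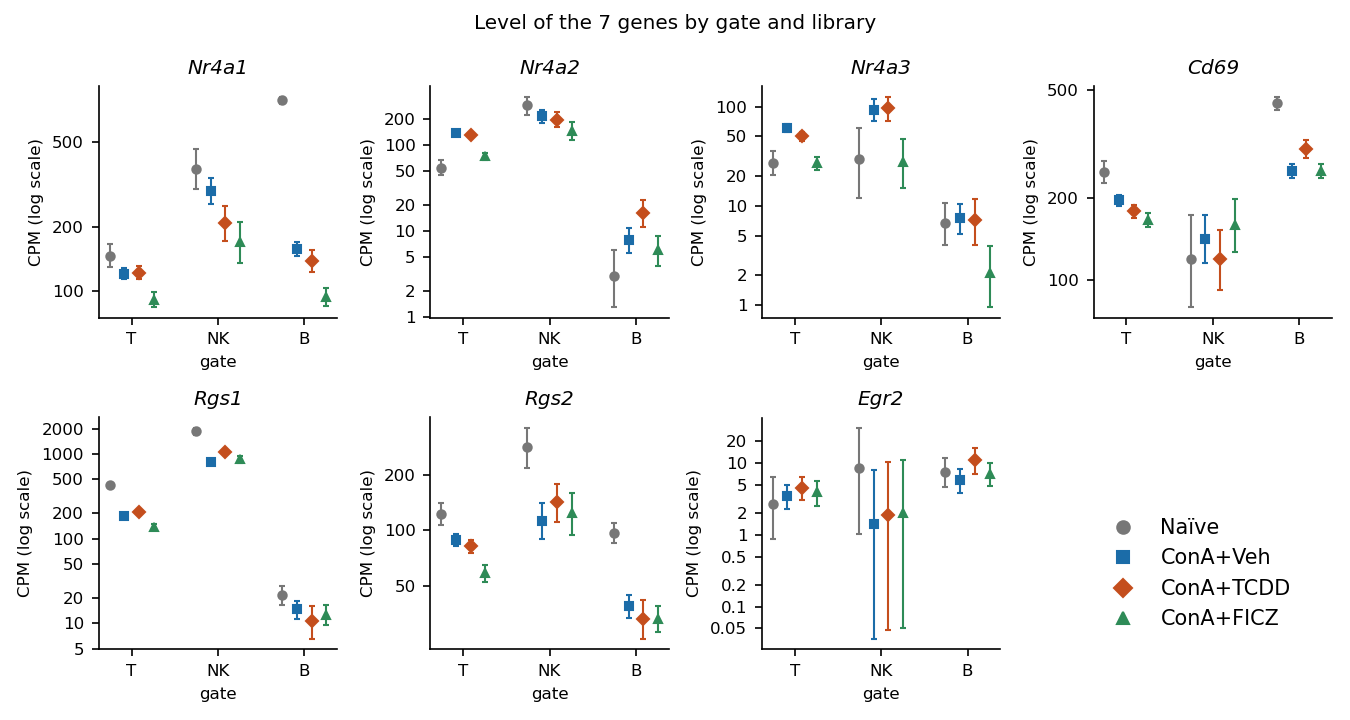
Level of each gene in CPM on a log axis, by gate, in the 4 libraries, with exact 95% counting intervals as bars and 1 library per point. *Nr4a1* stands at 784 CPM in the B-gated cells of Naïve and at 157 CPM or less in those of the ConA libraries.

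*Nr4a1* was lower in the B cells of every ConA library than in those of Naïve. In B-gated cells it was at 784 (750.4 to 818) CPM in Naïve, 157 (146 to 169) in ConA+Veh, 139 (123 to 155) in ConA+TCDD and 93.3 (84.4 to 103) in ConA+FICZ. The Naïve library stood apart, and ConA+FICZ was the lowest of the others. The log2 ratio of ConA+Veh over Naïve was −2.32 (−2.44 to −2.20), a level 4.98-fold lower. The share of B-gated cells with a UMI was 40.5% (37.5 to 43.5%) in Naïve and 14.9% (12.4 to 17.6%) in ConA+Veh at equal depth, and 55.6% and 38.5% before thinning. The ratio was −2.28 (−2.50 to −2.07) in B-gated cells with a UMI of *Cd86*, *Mreg* or *Cd200*, a split chosen after seeing the data, and −2.27 (−2.42 to −2.13) in those without. The paper reports a large cluster of CD55+ B cells in Naïve that was nearly absent in ConA+Veh and ConA+TCDD. It also reports a larger share of mature B cells in those ConA groups. The B gate pools these clusters, and their part in the differences of B-gated cells from Naïve was not tested. NK-gated cells held *Nr4a1* at 375 (300.4 to 461) CPM in Naïve, 294 (256 to 337) in ConA+Veh, 207 (170.5 to 250) in ConA+TCDD and 169 (135 to 209) in ConA+FICZ. The levels ran down in this order, the vehicle interval overlapped that of Naïve but not that of TCDD, and the TCDD and FICZ intervals overlapped. T-gated cells held 146 (129 to 165) CPM in Naïve, 120.3 (113 to 128) in ConA+Veh, 122 (113 to 130.4) in ConA+TCDD and 90.9 (83.8 to 98.4) in ConA+FICZ. The vehicle and TCDD libraries overlapped, Naïve lay just above vehicle, and FICZ lay below all of them. Over the 12 values of gate and library put in order of level, the intervals of 8 of 11 neighbouring pairs overlapped.

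*Nr4a2* was carried by T and NK cells, and among T cells it was higher in ConA+Veh and ConA+TCDD than in Naïve. T-gated cells held it at 54.6 (44.4 to 66.4) CPM in Naïve, 138 (129.7 to 146) in ConA+Veh, 131 (122 to 139.7) in ConA+TCDD and 73.9 (67.5 to 80.7) in ConA+FICZ. The vehicle and TCDD libraries overlapped, and the FICZ library lay between them and Naïve. The log2 ratio of ConA+Veh over Naïve was 1.33 (1.04 to 1.64). At equal depth 5.20% (3.39 to 7.58%) of T-gated cells had a UMI in Naïve and 17% (14.4 to 19.9%) in ConA+Veh, against 12.5% and 51.4% before thinning. NK-gated cells held it at 289 (225 to 367) CPM in Naïve, 216 (183 to 253) in ConA+Veh, 198 (162 to 239.7) in ConA+TCDD and 147 (116 to 185) in ConA+FICZ, and the log2 ratio, ConA+Veh over Naïve, was −0.42 (−0.85 to 0.012). B-gated cells gave 8, 38, 34 and 26 UMIs in the Naïve, vehicle, TCDD and FICZ libraries, in at most 0.914% of cells at equal depth, which cannot be told apart from free RNA. The T-gated level was 18.2, 17.4, 8.07 and 12.3 times the B-gated one in the same order. Of 11 neighbouring pairs among the 12 ordered levels, 7 overlapped.

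*Nr4a3* was low in Naïve T and NK cells, higher in ConA+Veh and ConA+TCDD, and low in ConA+FICZ. T-gated cells held it at 27.3 (20.3 to 36) CPM in Naïve, 60.5 (55.4 to 66) in ConA+Veh, 50.02 (44.8 to 55.7) in ConA+TCDD and 27 (23.2 to 31.2) in ConA+FICZ. NK-gated cells held 29.8 (12 to 61.4) CPM in Naïve, 92.9 (71.7 to 118) in ConA+Veh, 96.2 (71.6 to 126) in ConA+TCDD and 27.9 (15.2 to 46.8) in ConA+FICZ, from 7, 65, 51 and 14 UMIs. In both gates the FICZ interval overlapped that of Naïve and lay below those of the vehicle and TCDD libraries. The log2 ratio of ConA+Veh over Naïve was 1.15 (0.73 to 1.6) in T-gated and 1.64 (0.52 to 3.01) in NK-gated cells. At equal depth the shares with a UMI in the Naïve, vehicle, TCDD and FICZ libraries were 2.91%, 8.84%, 6.30% and 4.38% of T-gated and 1.03%, 9.68%, 9.29% and 1.47% of NK-gated cells. B-gated cells held 6.76, 7.47, 7.14 and 2.08 CPM in that order, from 18, 36, 15 and 9 UMIs, which cannot be told apart from free RNA. Of 11 neighbouring pairs of ordered levels, 8 overlapped.

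**Figure D2:**
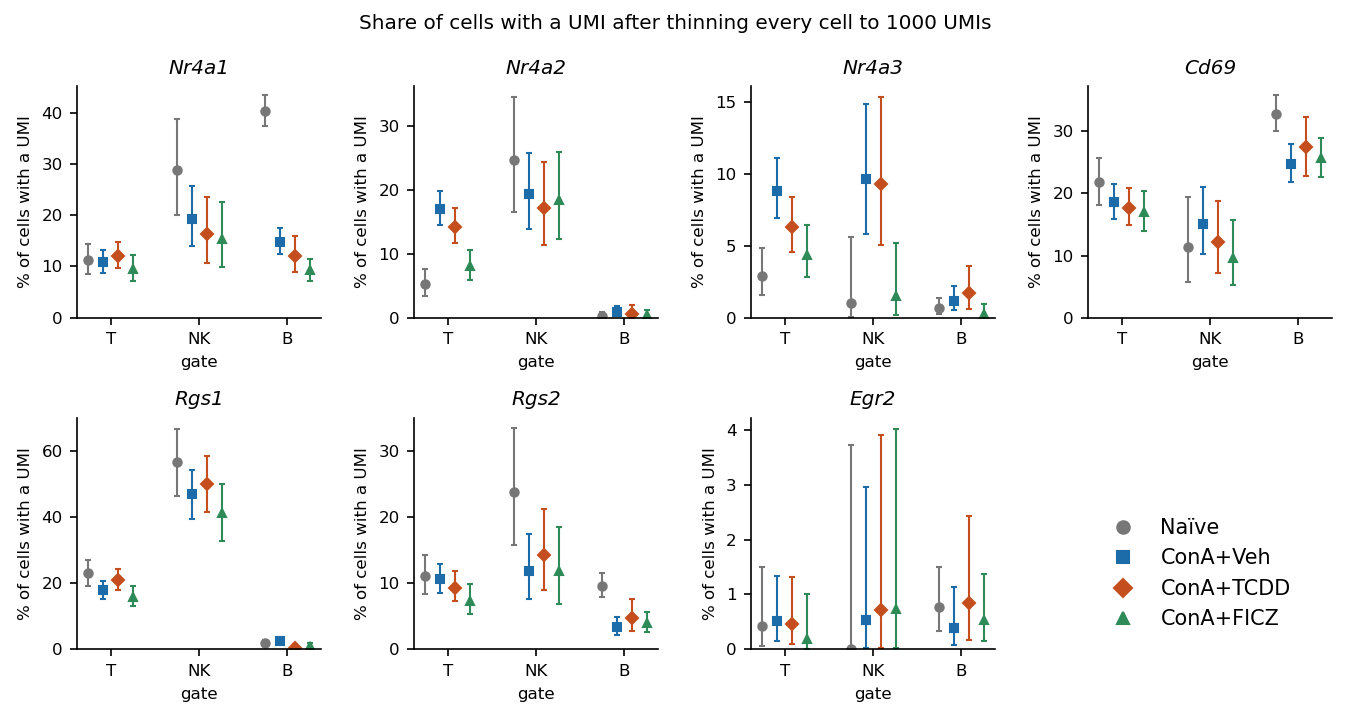
Share of gated cells with at least 1 UMI of each gene after every cell was thinned to 1000 UMIs, by gate and library, with exact 95% binomial intervals as bars. *Nr4a2* is at 5.20% of T-gated cells in Naïve and 17% in ConA+Veh, and *Nr4a1* at 40.5% and 14.9% of B-gated cells.

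*Cd69* was found in all 3 gates, and its level in T and B cells was highest in Naïve. T-gated cells held it at 248 (226 to 272) CPM in Naïve, 196 (187 to 206) in ConA+Veh, 178 (168 to 189) in ConA+TCDD and 166 (156 to 176) in ConA+FICZ, and the log2 ratio, ConA+Veh over Naïve, was −0.34 (−0.49 to −0.19). B-gated cells held 446 (421 to 472) CPM in Naïve, 251 (237 to 266) in ConA+Veh, 303 (280.1 to 328) in ConA+TCDD and 252 (237 to 267) in ConA+FICZ. The TCDD library thus lay above vehicle, by a log2 ratio of 0.27 (0.13 to 0.41), and below Naïve. NK-gated cells held 119, 141, 119 and 159 CPM in the same order, with overlapping intervals. At equal depth 21.8% (18.2 to 25.8%) of T-gated cells had a UMI in Naïve and 18.6% (15.9 to 21.5%) in ConA+Veh, while before thinning the shares were 41.3% and 60.1%, the opposite order. Among B-gated cells the shares at equal depth were 32.9% (30.02 to 35.8%) and 24.8% (21.8 to 28%), and before thinning 52.7% and 60.9%, also the opposite order. Mean UMIs per cell with no correction for depth turned the log2 ratio of ConA+Veh over Naïve to 1.20 in T-gated and 0.42 in B-gated cells. Of 11 neighbouring pairs of ordered levels, 8 overlapped.

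*Rgs1* was carried by NK and T cells and was lower in both in ConA+Veh than in Naïve. NK-gated cells held it at 1847 (1677 to 2029) CPM in Naïve, 803 (738 to 872) in ConA+Veh, 1056 (970.3 to 1147) in ConA+TCDD and 872 (792 to 958) in ConA+FICZ. Naïve was the highest, and TCDD lay above vehicle by a log2 ratio of 0.39 (0.22 to 0.57). T-gated cells held 427 (398 to 459) CPM in Naïve, 184 (175 to 193) in ConA+Veh, 207 (197 to 219) in ConA+TCDD and 139 (129.9 to 148) in ConA+FICZ. The log2 ratio of ConA+Veh over Naïve was −1.20 (−1.38 to −1.02) in NK-gated and −1.22 (−1.34 to −1.09) in T-gated cells. At equal depth the shares were closer, 22.9% (19.2 to 26.9%) of T-gated cells in Naïve and 17.8% (15.2 to 20.7%) in ConA+Veh, with overlapping intervals. Giving every T-gated cell the same weight moved the log2 ratio to −0.58, and mean UMIs per cell with no correction for depth turned it to 0.33. In NK-gated cells the same settings gave −0.99 and −0.40. B-gated cells held 21.4, 14.5, 10.5 and 12.5 CPM in the order Naïve, vehicle, TCDD, FICZ. Of 11 neighbouring pairs of ordered levels 4 overlapped, the fewest of the 7 genes.

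*Rgs2*, whose product acts mainly on Gq, was lower in the NK and B cells of ConA+Veh than in those of Naïve. NK-gated cells held it at 281 (217 to 357) CPM in Naïve, 113 (89.4 to 141) in ConA+Veh, 141 (111 to 177) in ConA+TCDD and 123 (94.7 to 158) in ConA+FICZ, and B-gated cells at 97.2 (85.7 to 109.8) CPM in Naïve, 38.8 (33.5 to 44.8) in ConA+Veh, 33.3 (26 to 42.1) in ConA+TCDD and 33.3 (28 to 39.1) in ConA+FICZ. In both gates the ConA libraries overlapped one another and lay below Naïve. The log2 ratio of ConA+Veh over Naïve was −1.31 (−1.80 to −0.82) in NK-gated, −1.32 (−1.6 to −1.05) in B-gated and −0.47 (−0.69 to −0.25) in T-gated cells. As mean UMIs per cell with no correction for depth they were −0.51 in NK-gated and −0.080 in B-gated cells, both under 2-fold. T-gated cells held 123, 88.6, 81.8 and 58.5 CPM in the order Naïve, vehicle, TCDD, FICZ. The share of B-gated cells with a UMI at equal depth was 9.52% (7.82 to 11.5%) in Naïve and 3.26% (2.12 to 4.78%) in ConA+Veh. Of 11 neighbouring pairs of ordered levels, 8 overlapped.

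*Egr2* was barely detected. T-gated cells gave 5, 29, 30 and 26 UMIs in the Naïve, vehicle, TCDD and FICZ libraries, NK-gated cells 2, 1, 1 and 1, and B-gated cells 20, 28, 23 and 31. At equal depth it was in at most 0.840% of the cells of any gate, and in 0 of 97 NK-gated cells of Naïve, which allows a share of up to 3.09% at 3 counts and of up to 3.73% by the exact interval. B-gated cells held 10.9 (6.94 to 16.4) CPM in ConA+TCDD and 5.81 (3.86 to 8.40) CPM in ConA+Veh, a log2 ratio of 0.91 (0.051 to 1.76). All 11 neighbouring pairs of ordered levels overlapped.

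Erythroid-gated cells, which should lack these genes, gave the background for the shares. In Naïve, with a median of 1562 UMIs, none of 18 held any of them. In ConA+Veh, with a median of 1140 UMIs, 4.76% (0.582 to 16.2%) of 42 cells held *Nr4a1* and as many held *Cd69*, and the other genes were in at most 1 cell. In ConA+TCDD, with a median of 1362 UMIs, *Cd69* was in 7.81% (2.59 to 17.3%) of 64 cells. ConA+FICZ had only 7 such cells at this depth. The shares of *Nr4a1* in T-gated cells of ConA+Veh and ConA+TCDD, 10.8% and 12.1%, and of *Cd69* in NK-gated cells of ConA+TCDD, 12.1%, lay above these values, but the background intervals are wide. In CPM the order was the reverse for *Nr4a1* in T-gated and B-gated cells of ConA+Veh and *Cd69* in NK-gated cells of ConA+TCDD. Erythroid-gated cells of ConA+Veh held *Nr4a1* at 181 (105 to 289) CPM, against 120.3 in T-gated and 157 in B-gated cells. Those of ConA+TCDD held *Cd69* at 132 (84.7 to 197) CPM, against 119 in NK-gated cells. The intervals overlapped, so these levels did not clear this background. The 181 CPM rested on 17 UMIs, in cells that also held T marker genes at 106 and B marker genes at 53.1 CPM. Other levels cleared it. In ConA+TCDD erythroid-gated cells held *Nr4a1* at 22 (6.01 to 56.4) CPM, against 122 in T-gated and 139 in B-gated cells. In ConA+Veh they held *Cd69* at 63.8 (23.4 to 139) CPM, against 196 in T-gated and 251 in B-gated cells. Endothelial-gated cells of ConA+Veh held *Nr4a1* at 266 (217 to 321) CPM and were not used as its background. The same cells held *Rgs1* at 135 (102 to 177) CPM, against 184 (175 to 193) in T-gated cells. In ConA+TCDD the 11 endothelial-gated cells held *Cd69* at 608 (438 to 821) CPM.

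**Figure D3:**
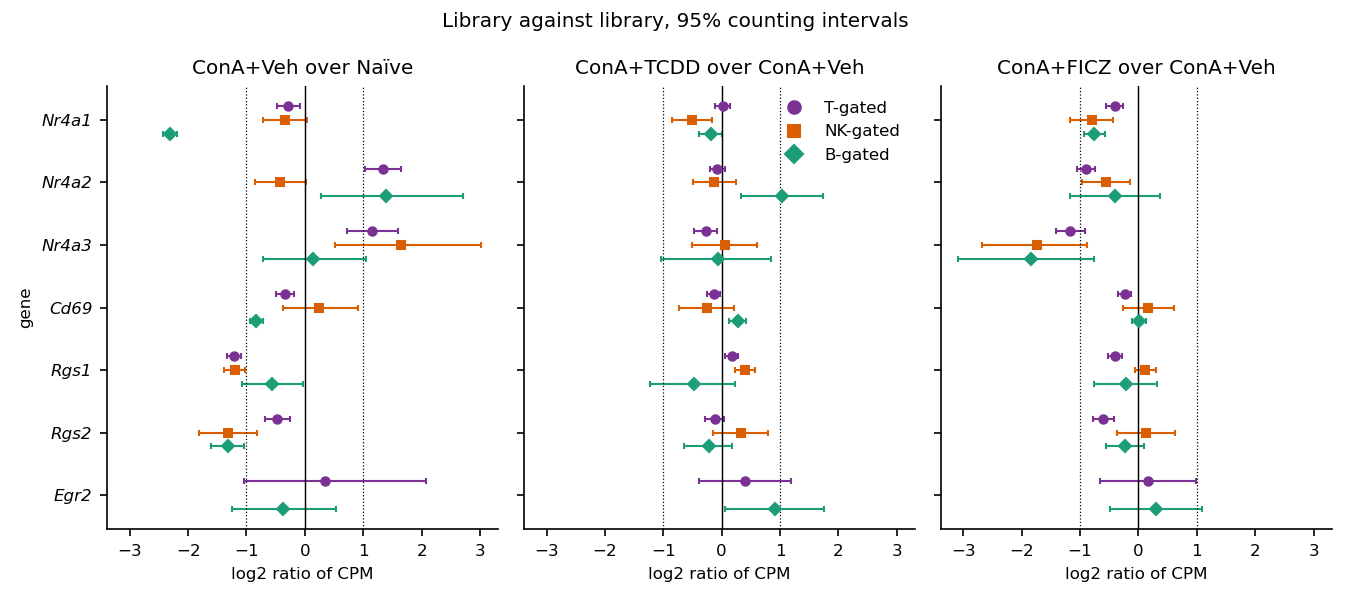
Log2 ratio of CPM between libraries for each gene in T-gated, NK-gated and B-gated cells, with exact 95% counting intervals as bars, for ConA+Veh over Naïve and then for the TCDD and the FICZ library over vehicle. Dotted lines mark 2-fold, and *Egr2* in NK-gated cells is left out for having under 30 UMIs. *Nr4a1* in B-gated cells is the farthest to the left, at −2.32 for ConA+Veh over Naïve.

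Between ConA+Veh and Naïve, the members were counted against all genes with at least 30 UMIs in both libraries together. In T-gated cells 2 of 7 members, *Nr4a2* and *Nr4a3*, were at least 2-fold higher, where 8.87% of all genes were, and 1, *Rgs1*, was at least 2-fold lower, where 14.4% were. In NK-gated cells 1 of 6 was higher (*Nr4a3*, background 9.25%) and 2 were lower (*Rgs1* and *Rgs2*, background 10.8%). In B-gated cells 1 of 7 was higher (*Nr4a2*, on 46 UMIs, background 8.29%) and 2 were lower (*Nr4a1* and *Rgs2*, background 17.9%). The median log2 ratio was −0.28 over the members and −0.14 over all 9446 genes tested in T-gated cells, −0.39 over the members and −0.053 over all 4065 genes tested in NK-gated cells and −0.56 over the members and −0.26 over all 8925 genes tested in B-gated cells. The members' ratios had both signs in every gate.

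The TCDD and FICZ libraries were each set against ConA+Veh, which both comparisons share. With TCDD, no member was 2-fold higher or lower in T-gated cells (background 0.947% higher and 1.42% lower) or in NK-gated cells (0.826% and 2.67%). In B-gated cells 1 was 2-fold higher, *Nr4a2* (background 1.11%), and none lower (background 2.23%). That ratio of 1.04 (0.33 to 1.74) rested on 72 UMIs that cannot be told apart from free RNA, and the shares did not follow it, at 0.560% with TCDD and 0.914% with vehicle at equal depth and 4.17% and 4.25% before thinning. The ratio was 1.89 (0.88 to 2.97) in B-gated cells with a *Cd86*, *Mreg* or *Cd200* UMI and −0.17 (−1.53 to 1.03) in the others. Before thinning, the former cells were 42.4% of the B gate in ConA+TCDD and 31.7% in ConA+Veh. The widest TCDD ratio in NK-gated cells was that of *Nr4a1*, −0.51 (−0.85 to −0.16). In T-gated cells *Nr4a3* was at −0.27 (−0.48 to −0.072), *Cd69* at −0.13 (−0.24 to −0.026) and *Rgs1* at 0.17 (0.066 to 0.28). The T-gated intervals of the other members included 0. The share of all genes with intervals that left out 0 was not counted. The median log2 ratio with TCDD was −0.074 over the members and −0.047 over all 9822 genes tested in T-gated, −0.037 over the members and −0.051 over all 4601 genes tested in NK-gated and −0.066 over the members and 0.027 over all 8503 genes tested in B-gated cells.

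With FICZ, *Nr4a3* alone was at least 2-fold lower, and it was so in T-gated, NK-gated and B-gated cells, at log2 ratios of −1.17 (−1.42 to −0.92), −1.74 (−2.68 to −0.89) and −1.85 (−3.09 to −0.77), the last on 45 UMIs. The background was 1.74%, 2.69% and 1.81% of genes, and no member was 2-fold higher, where 1.09%, 1.69% and 1.71% of genes were. The B-gated *Nr4a3* levels, 2.08 CPM with FICZ and 7.47 CPM with vehicle, cannot be told apart from free RNA. For *Nr4a3* the shares at equal depth had separate intervals in T-gated and NK-gated cells. In B-gated cells, at 0.268% and 1.17%, they overlapped. *Nr4a2* was at −0.90 (−1.05 to −0.74) in T-gated and −0.55 (−0.97 to −0.14) in NK-gated cells, and *Nr4a1* at −0.41 (−0.55 to −0.26), −0.80 (−1.18 to −0.43) and −0.75 (−0.93 to −0.58) in T-gated, NK-gated and B-gated cells. All of these intervals lay below 0. In T-gated cells *Rgs2* was at −0.60 (−0.78 to −0.42), *Rgs1* at −0.41 (−0.53 to −0.29) and *Cd69* at −0.24 (−0.35 to −0.13), also below 0. The share of all genes with intervals below 0 was not counted. The shares at equal depth followed these ratios only in part. FICZ and vehicle had separate intervals for *Nr4a2* in T-gated (8.03% and 17%) and *Nr4a1* in B-gated cells (9.24% and 14.9%). Intervals overlapped for *Nr4a1* (9.49% and 10.8%), *Rgs1* (15.9% and 17.8%), *Rgs2* (7.30% and 10.5%) and *Cd69* (17% and 18.6%) in T-gated cells. They also overlapped for *Nr4a1* (15.4% and 19.4%) and *Nr4a2* (18.4% and 19.4%) in NK-gated cells. *Cd69* in B-gated cells was at 0.0054 (−0.11 to 0.12) and *Rgs1* in NK-gated cells at 0.12 (−0.065 to 0.30). The median log2 ratio with FICZ was −0.41 over the members and −0.0067 over all 9820 genes tested in T-gated, −0.22 over the members and −0.026 over all 4603 genes tested in NK-gated and −0.22 over the members and 0.025 over all 9021 genes tested in B-gated cells.

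Set side by side, the 3 NR4A genes, *Rgs1* and *Rgs2* had higher CPM in the T-gated cells of the TCDD library than in those of the FICZ library. Their ratio intervals lay above 0, and those of *Cd69* and *Egr2* included 0. How many of all genes had such intervals was not counted. The median log2 ratio in T-gated cells was 0.49 over the members and −0.029 over all 9661 genes tested. *Nr4a1* was at 122 and 90.9 CPM, *Nr4a2* at 131 and 73.9 CPM and *Nr4a3* at 50.02 and 27 CPM in ConA+TCDD and ConA+FICZ. *Rgs1* was at 207 and 139 CPM and *Rgs2* at 81.8 and 58.5 CPM. At equal depth only *Nr4a2* of these genes had separate intervals, 14.2% (11.7 to 17.1%) and 8.03% (5.89 to 10.6%) of T-gated cells. Those of *Nr4a1*, *Nr4a3*, *Rgs1* and *Rgs2* overlapped. Over 11 alternatives the lowest log2 ratio was −0.0093 for *Rgs2*, 0.11 for *Nr4a1*, 0.27 for *Rgs1*, 0.51 for *Nr4a2* and 0.53 for *Nr4a3*. No member in T-gated cells was 2-fold apart (background 1.45% higher and 1.42% lower with TCDD). *Nr4a3* in NK-gated cells was, at 1.79 (0.91 to 2.75) (background 2.16% higher and 3.16% lower), and so was *Nr4a2* in B-gated cells, at 1.43 (0.65 to 2.23) (background 1.63% higher and 2.86% lower). The B-gated ratio rested on 60 UMIs that cannot be told apart from free RNA. The compounds' doses cannot be matched here, so these values compare libraries and not ligands.

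Within the T gate, levels differed between the cells with CD4 and CD8 coreceptor UMIs. T-gated cells with *Cd8a* or *Cd8b1* and no *Cd4* UMI differed from those with only *Cd4* by log2 ratios of −1.48, −0.73, −0.52 and −1.10 for *Nr4a1* and 1.41, 0.32, 0.43 and 0.55 for *Nr4a2* in the Naïve, vehicle, TCDD and FICZ libraries, so *Nr4a1* was lower and *Nr4a2* higher in the CD8 cells of every library. T-gated cells with neither coreceptor were above the CD8 cells in *Rgs1* by 2.31, 2.48, 2.05 and 2.63 in the same order. The ratio of ConA+Veh over Naïve for *Nr4a2* was 2.11 (1.19 to 3.19) in CD4 and 1.02 (0.61 to 1.45) in CD8 cells, and for *Nr4a3* it was 2.40 (1.13 to 4.05) and 1.56 (0.69 to 2.58). For *Rgs1*, 2-fold lower over the whole gate, it was −0.36 (−0.73 to 0.0098) in CD4 cells, −0.78 (−1.08 to −0.47) in CD8 cells and −0.61 (−0.77 to −0.45) in cells with neither, under 2-fold in each. The cells with neither, which held the most *Rgs1*, were 49.8%, 30.6%, 44.6% and 37.2% of the T gate in the order of libraries above. These shares were taken before thinning, at unequal depth. The differences between these classes were not tested.

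Further splits of the T gate were chosen after seeing the data. Their shares of the gate were taken before thinning, at unequal depth, unless equal depth is named. Cells with a *Cxcr6* UMI, which encodes a chemokine receptor of liver-resident T cells, were 28.5%, 18.1%, 15.4% and 15.3% of the gate in the Naïve, vehicle, TCDD and FICZ libraries, and held *Rgs1* above the rest by log2 ratios of 1.84, 1.67, 1.59 and 1.52. Without them the *Rgs1* ratio of ConA+Veh over Naïve was −0.99 (−1.18 to −0.80). Cells with a *Mki67* or *Top2a* UMI, genes of cycling cells, were 5.93%, 63.6%, 44.6% and 46.3% of the gate, and the *Rgs1* ratio was −0.21 (−0.37 to −0.049) in the cells without and −1.51 (−1.77 to −1.24) in the cells with such a UMI. The Naïve side of the latter ratio was only 30 cells, and the interval does not cover the spread between cells. When cycling cells were instead found at equal depth, they were 2.70%, 37.6%, 22.9% and 20.1% of the T-gated cells in the same order of libraries. Non-cycling T-gated cells then held *Rgs1* at 394 CPM in Naïve and 217 CPM in ConA+Veh. Cycling ones held it at 586 CPM in Naïve, from 13 cells, and 135 CPM in ConA+Veh. The part of cycling and of *Cxcr6* cells in the T cell difference was not tested beyond these values.

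Cells with over 10% mitochondrial UMIs, a sign of damage or stress, were 6.32%, 20.5%, 12.3% and 10.8% of the T gate in the same order. They held *Nr4a2* above the other T-gated cells by log2 ratios of 1.42, 2.71, 2.71 and 1.89, *Nr4a3* by 1.42, 1.84, 2.29 and 1.88 and *Cd69* by 1.45, 2.46, 2.58 and 1.82. The Naïve ratios rested on 32 such cells. Their intervals were 0.17 to 2.46 for *Nr4a2*, −0.51 to 2.87 for *Nr4a3*, which includes 0, and 0.92 to 1.93 for *Cd69*. For *Nr4a1* the log2 ratios of high over low mitochondrial share were 0.40, −0.49, 0.11 and −0.66 in the same order of libraries. Without these cells the ratio of ConA+Veh over Naïve in T-gated cells was 0.98 (0.67 to 1.31) for *Nr4a2*, just under 2-fold, 1.01 (0.57 to 1.48) for *Nr4a3* and −0.62 (−0.78 to −0.46) for *Cd69*. For ConA+FICZ over ConA+Veh it was −0.57 (−0.74 to −0.40) for *Nr4a2* and −1.05 (−1.32 to −0.79) for *Nr4a3*.

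**Figure D4:**
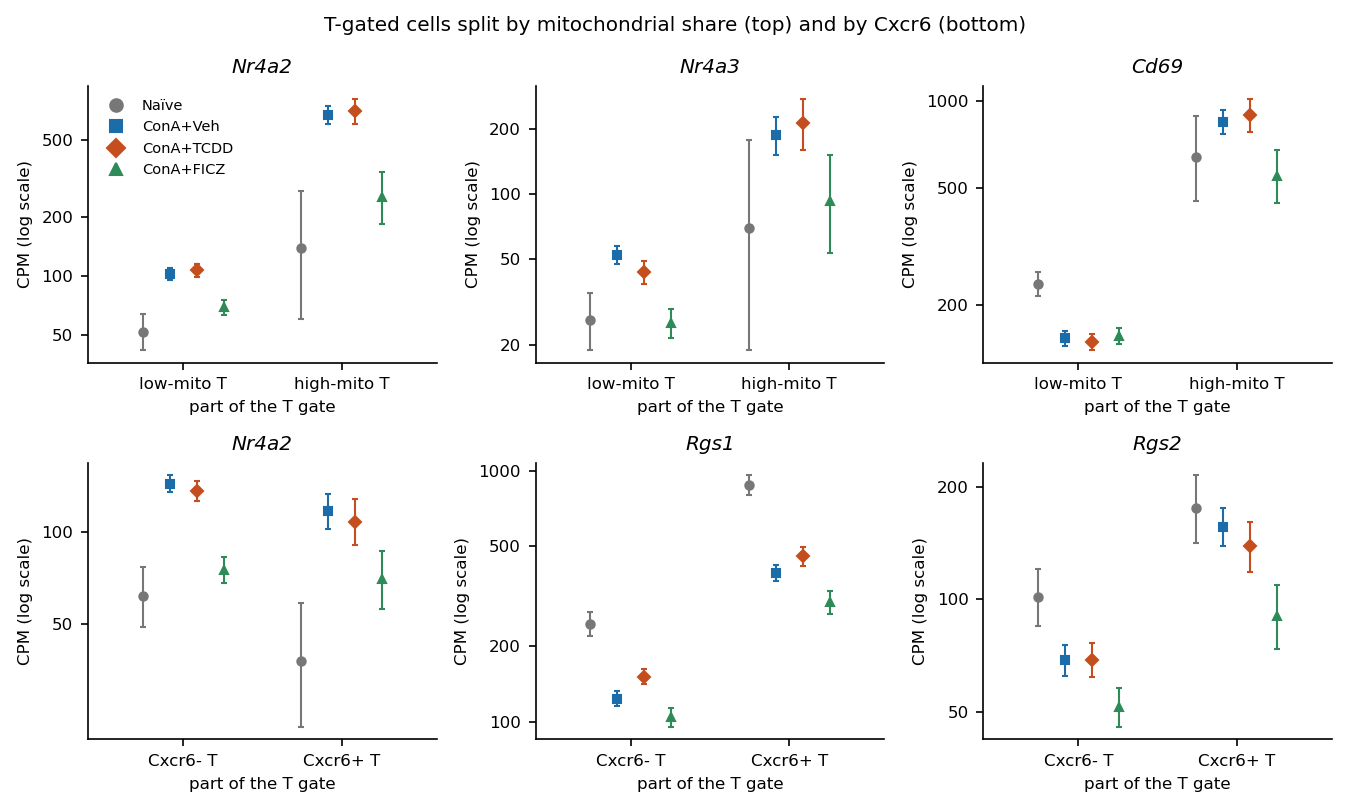
Levels in CPM on log axes in parts of the T gate, by library, with exact 95% counting intervals as bars. The top panels show *Nr4a2*, *Nr4a3* and *Cd69* in cells with at most and with over 10% mitochondrial UMIs (low-mito and high-mito), and the bottom panels *Nr4a2*, *Rgs1* and *Rgs2* in cells without and with a *Cxcr6* UMI. T-gated cells with over 10% mitochondrial UMIs hold *Nr4a2* at 673 CPM in ConA+Veh, against 103 CPM in the rest.

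Within the NK gate, cells with an *Itga1* or *Cxcr6* UMI, genes of tissue-resident innate lymphocytes, were 19.3%, 6.40%, 11% and 2.63% of the cells in the Naïve, vehicle, TCDD and FICZ libraries. These were only 23, 13, 17 and 4 cells. They held *Rgs1* above the other NK-gated cells by log2 ratios of 2.07 (1.79 to 2.35), 1.28 (0.93 to 1.62), 1.27 (1.0 to 1.53) and 1.0 (0.43 to 1.52). Without them, a split chosen after seeing the data, the ratio of ConA+Veh over Naïve for *Rgs1* was −0.55 (−0.79 to −0.30), under 2-fold, and for *Nr4a1* it was −0.75 (−1.13 to −0.36). The *Nr4a3* ratio with FICZ was −1.54 (−2.50 to −0.67) in the same cells.

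At equal depth, 52.2%, 55.1%, 55.3% and 45.3% of T-gated cells, 82.5%, 76.9%, 75% and 66.2% of NK-gated cells and 62.1%, 38.8%, 40.1% and 35.7% of B-gated cells held at least 1 of the 7 genes in the Naïve, vehicle, TCDD and FICZ libraries. The B gate of Naïve stood above the other B gates, and the FICZ library gave the lowest value in each gate. In T-gated cells its interval, 41 to 49.5%, lay below those of vehicle (51.5 to 58.7%) and TCDD (51.5 to 59.1%). It overlapped that of Naïve (47.6 to 56.7%). In NK-gated and B-gated cells the FICZ interval overlapped those of vehicle and TCDD. In T-gated cells *Rgs2* was in 20.9% (13.7 to 29.7%) of the cells with and 8.09% (5.52 to 11.3%) of the cells without *Rgs1* in Naïve, and in 21.2% (14.7 to 29%) of the cells with and 8.23% (6.21 to 10.6%) of the cells without it in ConA+Veh. *Nr4a3* was in 16% (10.2 to 23.5%) of the cells with and 7.37% (5.46 to 9.68%) of the cells without *Nr4a2* in T-gated cells of ConA+Veh, and *Cd69* was in 29.8% (22.1 to 38.4%) of the cells with and 16.3% (13.5 to 19.4%) of the cells without *Nr4a2*. In the T-gated cells of the other libraries the intervals for *Cd69* with and without *Nr4a2* overlapped. Those for *Rgs2* by *Rgs1* and *Nr4a3* by *Nr4a2* were also apart in ConA+TCDD and overlapped in ConA+FICZ. For *Nr4a3* by *Nr4a2* they overlapped in Naïve too. Of 498 such ordered comparisons with cells on both sides, 21 had intervals that did not overlap. A pair can appear there in both directions, and the comparisons given with values above are among the 21. No such count was made for pairs of other genes, so 21 of 498 is a description.

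Genes of the same pathways were followed in 4 lists, also chosen with earlier results of these data known, so their counts are descriptions. In T-gated cells of ConA+Veh against Naïve, 28 of 30 antigen-receptor-induced genes had enough UMIs, with 9 at least 2-fold higher, 6 lower and a median log2 ratio of −0.075. *Pdcd1*, the inhibitory receptor PD-1, was the highest at 2.02 (1.27 to 2.88), and *Cd40lg*, the ligand by which T cells help B cells, the lowest at −2.42 (−2.69 to −2.14). Of 11 RGS and G protein genes 1 was higher and 2 lower (median −0.024), from *Rgs16* at 2.15 to *Rgs3* at −1.49. Of 15 egress and residency genes none was higher and 9 were lower (median −1.69), those lower ranging from *Itgae* at −1.59 to *Zfp683*, which encodes the residency factor Hobit, at −3.96. Of 19 dissociation response genes 1 was higher and 13 lower (median −1.35), with *Hsp90aa1* at 1.21 and *Jun* at −3.15. Over all genes 8.87% were higher, 14.4% were lower and the median was −0.14, and *Egr1* is in both the first and the last list.

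The other gates gave the same counts for ConA+Veh over Naïve as follows. In NK-gated cells 2 of 17 antigen-receptor-induced genes were higher and 3 lower (median −0.38), 1 of 6 RGS and G protein genes was higher and 1 lower (0.095), 0 of 10 egress and residency genes were higher and 2 lower (−0.80), and 1 of 17 dissociation response genes was higher and 9 lower (−1.31), against 9.25% higher and 10.8% lower over all genes. In B-gated cells 1 of 17 antigen-receptor-induced genes was higher and 7 lower (−0.83), 1 of 9 RGS and G protein genes was higher and 1 lower (−0.24), 0 of 10 egress and residency genes were higher and 5 lower (−1.10), and 2 of 19 dissociation response genes were higher and 11 lower (−1.41), against 8.29% and 17.9% over all genes. The RGS counts of 1 gene each way are too small to set against these shares. The lower level of *Nr4a1* in B-gated cells thus stood beside lower levels of early response genes: *Fos* was at 614 CPM in Naïve and 47.3 CPM in ConA+Veh, and *Junb* at 2992 and 405 CPM, 2 genes named after their values were seen. The part of the response to dissociation in the differences from Naïve was not tested.

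**Figure D5:**
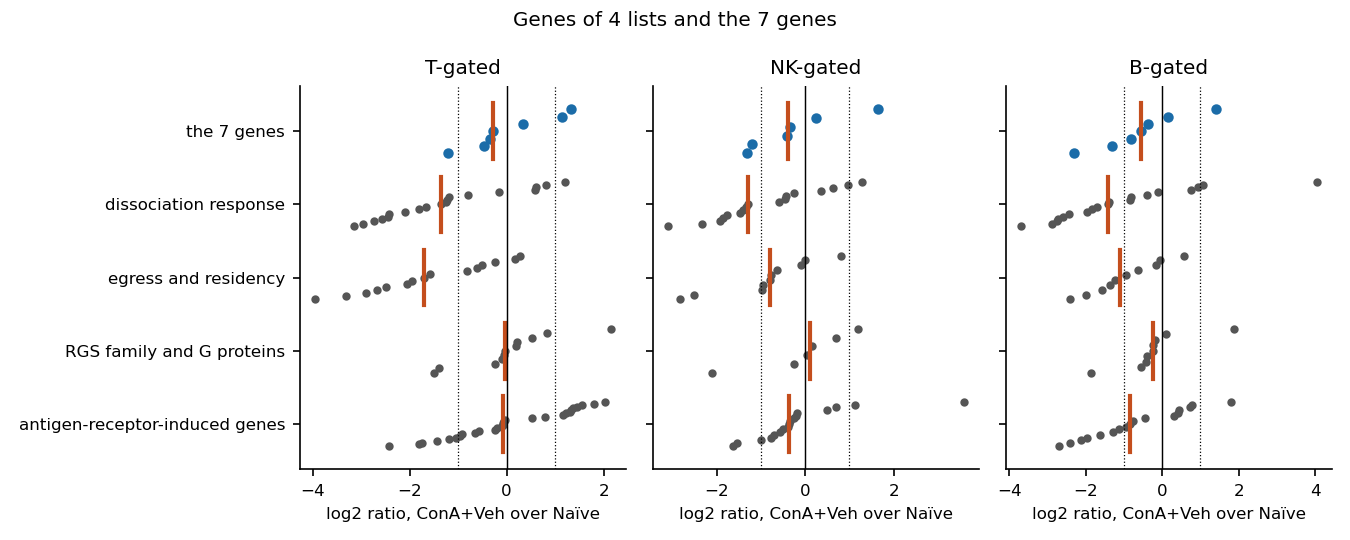
Log2 ratio of CPM of ConA+Veh over Naïve for each gene of the 4 lists with at least 30 UMIs, by gate, with 1 grey point per gene, the 7 members as blue points above them, red bars for medians and dotted lines for 2-fold. The dissociation response genes lie mostly left of 0 in all 3 gates, with medians of −1.35, −1.31 and −1.41 in T-gated, NK-gated and B-gated cells.

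With TCDD against vehicle in T-gated cells, 2 of 30 antigen-receptor-induced genes were at least 2-fold higher and 1 lower, with *Cd200* at 1.32 and the chemokine gene *Xcl1* at −1.06. None of 11 RGS and G protein genes was 2-fold apart, and of 19 dissociation response genes 1 was higher (*Atf3* at 1.0) and 2 lower (*Hspa1a* the lowest at −2.50), where 0.947% of all genes were higher and 1.42% lower. With FICZ, 2 of 30 antigen-receptor-induced genes were lower, *Il2* at −1.62 and *Xcl1* at −1.25. *Rgs16* was the 1 of 11 RGS and G protein genes that was lower, at −1.01, and none of 14 egress and residency or 19 dissociation response genes was 2-fold apart, where 1.09% of all genes were higher and 1.74% lower.

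Over the 12 values of gate and library, Pearson's r of log2(CPM + 10) was used to name the 3 genes most like each member among 9887 genes. These values share libraries and depth, so r is a description. They were *Tsc22d2* (0.961), *Stk17b* (0.944), *Jarid2* (0.932) for *Nr4a1*, *Atp2b4* (0.979), *Ubash3b* (0.978), *Fosl2* (0.976) for *Nr4a2* and *Orai1* (0.966), *Rgs16* (0.965), *Vgll4* (0.953) for *Nr4a3*. For *Cd69* they were *St6gal1* (0.969), *Sema4b* (0.967), *Sh3bp5* (0.959), for *Rgs1* *Sytl3* (0.993), *Txk* (0.992), *Dusp5* (0.991), for *Rgs2* *Pgm2l1* (0.980), *Diaph1* (0.973), *Serinc1* (0.973) and for *Egr2* *Lamc1* (0.902), *Ddx41* (0.892), *Upf3b* (0.867). Among the members r was 0.88 for *Nr4a2* and *Nr4a3*, 0.93 for *Nr4a2* and *Rgs1*, −0.0077 for *Nr4a1* and *Nr4a2*, and −0.90 for *Cd69* and *Nr4a2*.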

How the data were processed

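The matrices of UMI counts per gene and cell barcode were deposited by the authors, who made them with Cell Ranger on mm10 from 5′ single-cell libraries, 1 library per group. The libraries held 2086, 2779, 1880 and 2555 cells and 5952445, 19252211, 12077209 and 16017797 UMIs in the Naïve, vehicle, TCDD and FICZ libraries. Cells were gated on at least 2 UMIs of T (*Cd3e*, *Cd3d*, *Cd3g*, *Trac*), NK (*Ncr1*, *Klrb1c*, *Klre1*, *Klra8*) or B (*Cd79a*, *Cd79b*, *Ms4a1* and another) markers and at most 1 UMI of the other lineages, with none of *Cd3e*, *Cd3d* and *Trac* in NK-gated cells. A T-gated cell could hold NK markers. No doublet caller was run. Beyond these rules, T-gated and NK-gated cells were limited only in B and myeloid markers, and B-gated cells in T, NK and myeloid markers. Some cells with markers of several lineages could therefore remain. Levels are summed UMIs per 1000000 with exact Poisson intervals, shares have exact Clopper-Pearson intervals, and ratios have intervals from the exact binomial distribution, all at 95%. For shares each cell was thinned to 1000 UMIs, without the cells below that depth. Genes needed 30 UMIs in a pair of libraries to be counted, and a library at 0 was set to 3 counts. With 1 library per group no test between conditions was made. The members and lists were chosen with earlier results of these data known. Named genes were the 7 members, the 3 genes most like each, and the highest and lowest past 2-fold of each list in T-gated cells, and an item that these rules would name is not reported here. Alternatives changed the weighting, denominator, depth, gate and filters. The calculations were tested on simulated data. The work used matplotlib 3.10.9, pandas 2.3.3, scipy 1.17.1 and numpy 2.4.6 under Python 3.11.15, with GENCODE M21 positions and RefSeq promoters of GRCm38.p6.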

Additional observations from a re-analysis of the deposited data

Results flagged for a closer look

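*Nr4a2* was picked out because its ratio was past 2-fold in one gate and of the opposite sign in another, with intervals that did not overlap. For ConA+Veh over Naïve the log2 ratio was 1.33 (1.04 to 1.64) in T-gated, 1.39 (0.27 to 2.70) in B-gated and −0.42 (−0.85 to 0.012) in NK-gated cells. For ConA+TCDD over ConA+Veh it was 1.04 (0.33 to 1.74) in B-gated, −0.12 (−0.50 to 0.24) in NK-gated and −0.074 (−0.20 to 0.055) in T-gated cells. The intervals of all the negative values included 0. The B-gated values rested on 46 and 72 UMIs, which cannot be told apart from free RNA. The difference between the gates was not tested, and each value compares 1 library with 1 other.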

How the results depend on the processing

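No paired analysis was possible because each group was 1 library, and for the same reason no library could be left out. For the 15 level ratios past 2-fold, 151 of 154 alternative values had the same sign and 132 were still past 2-fold. The sign turned for *Rgs1* in T-gated cells, ConA+Veh over Naïve, which was 0.33 as mean UMIs per cell without correction for depth. It turned for *Nr4a2* in B-gated cells, ConA+TCDD over ConA+Veh, which was −0.17 without cells holding *Cd86*, *Mreg* or *Cd200* UMIs and −0.079 with cells weighted equally, by averaging each cell's own fraction. Thinned to 500 UMIs, the log2 ratios of shares of B-gated cells turned to −0.19 for *Nr4a2* (ConA+Veh over Naïve) and 0.10 for *Rgs1* (ConA+TCDD over ConA+Veh).

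The members' median log2 ratio moved as follows. For ConA+Veh over Naïve in T-gated cells (−0.28) it was 0.053 without *Mki67* or *Top2a* cells, 0.068 with cells weighted equally and 1.26 without depth correction. In NK-gated cells (−0.39) it was 0.42 without depth correction, and in B-gated cells (−0.56) it was 0.057 with equal weights and 0.69 without depth correction. For ConA+TCDD over ConA+Veh in T-gated cells (−0.074) it was −0.21 without depth correction. For ConA+FICZ over ConA+Veh in T-gated cells (−0.41) it was −0.63 with gates set on thinned cells, −0.66 without *Mki67* or *Top2a* cells, −0.28 without *Cxcr6* cells, −0.29 with equal weights and −0.23 without depth correction. In B-gated cells (−0.22) it was −0.81 without *Cd86*, *Mreg* or *Cd200* cells and −0.86 with equal weights. For ConA+TCDD over ConA+FICZ it was 0.74 with gates on thinned cells and 0.17 without depth correction in T-gated cells (0.49), and 0.17 with no UMI of another lineage allowed and 0.18 with equal weights in B-gated cells (0.42). The causes were not tested, and the settings that leave out cells by gene were chosen after seeing the data.

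*Nr4a1* in B-gated cells (ConA+Veh over Naïve) lay between −2.37 and −1.07 over 10 alternatives, and *Nr4a3* with FICZ in T-gated cells between −1.29 and −0.97 over 11. The share of genes past 2-fold was 2.36 to 26.2% over the comparisons, 0.724 to 22.2% with at least 100 UMIs and 18.6 to 39.8% with no minimum. Single libraries, unknown animal numbers and low UMI counts limit every value: *Egr2*, and *Nr4a2*, *Nr4a3* and *Rgs1* in B-gated cells, were near the limit of detection.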
